A study of Homo sapiens with 480 samples.

Results

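The 9 genes described here encode proteins that sit directly under the T cell receptor or beside it: the kinases LCK and ZAP70, the phosphatase PTPRC (CD45) and its partner PTPRCAP, the adaptors LAT and LCP2 (SLP-76), the negative adaptor SLA, the costimulatory receptor CD28 and the inhibitory receptor PVRIG. They were chosen by symbol among 20302 features, and all 9 were among the 13558 genes with enough counts to be tested. The data are single-cell transcriptomes of 480 sorted wells on 5 plates, from cells used to study the reversal of HIV latency. Jurkat is an established leukaemic T cell line of human origin, and J-Lat A2 is a single clone derived from it with a mostly silent HIV-based construct in its genome, so neither line stands for primary T cells. Cells of each line spent 24 h with 1 uM SAHA (vorinostat, which inhibits histone deacetylases), with 1 ug/mL PMA (a phorbol ester and activator of protein kinase C) or with 0.1% v/v DMSO, the vehicle. J-Lat A2 with SAHA, J-Lat A2 with DMSO and Jurkat with DMSO were present in both experimental batches, and the other groups, J-Lat A2 with PMA, Jurkat with SAHA and Jurkat with PMA, in the second batch alone.

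When the receptor binds its ligand, LCK phosphorylates the tails of the CD3 chains, ZAP70 docks on them and phosphorylates LAT and LCP2, and these adaptors assemble the complex from which calcium, Ras and protein kinase C signals start. PTPRC removes an inhibitory phosphate from LCK, and PTPRCAP is bound to PTPRC. SLA promotes the loss of receptor chains from the cell surface, CD28 gives the costimulatory signal of full activation, and PVRIG restrains it. Phorbol esters act below these proteins and bypass the receptor.

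The promoters of 4 genes are shown because LAT, LCP2 and CD28 had the largest log2 fold changes of the 9 genes for PMA against DMSO in both lines, and PVRIG had almost no reads with SAHA. They are RefSeq sequences on GRCh38.p14, from 250 bases before an annotated start to 50 after it, 5′ to 3′ on the strand of the gene. That of LAT lies at chr16:28984553-28984852 (plus strand), LCP2 at chr5:170297728-170298027 (minus strand), CD28 at chr2:203706389-203706688 (plus strand) and PVRIG at chr7:100219699-100219998 (plus strand). Capitals mark GGAA, the core of ETS factor motifs, TGTGGT, a RUNX motif, and TGANTCA, the AP-1 motif, each searched on both strands, so that TTCC is GGAA on the other strand.
LAT: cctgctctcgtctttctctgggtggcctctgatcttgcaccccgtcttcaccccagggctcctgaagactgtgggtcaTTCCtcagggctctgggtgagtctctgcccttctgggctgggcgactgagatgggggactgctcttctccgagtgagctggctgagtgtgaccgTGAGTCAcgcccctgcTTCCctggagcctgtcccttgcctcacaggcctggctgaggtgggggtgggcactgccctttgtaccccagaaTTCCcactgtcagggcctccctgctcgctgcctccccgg
LCP2: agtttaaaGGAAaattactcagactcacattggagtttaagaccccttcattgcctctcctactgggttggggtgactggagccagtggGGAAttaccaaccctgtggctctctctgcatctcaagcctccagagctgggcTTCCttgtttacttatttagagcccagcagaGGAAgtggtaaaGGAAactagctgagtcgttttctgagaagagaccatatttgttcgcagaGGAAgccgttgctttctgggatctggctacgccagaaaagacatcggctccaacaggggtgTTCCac
CD28: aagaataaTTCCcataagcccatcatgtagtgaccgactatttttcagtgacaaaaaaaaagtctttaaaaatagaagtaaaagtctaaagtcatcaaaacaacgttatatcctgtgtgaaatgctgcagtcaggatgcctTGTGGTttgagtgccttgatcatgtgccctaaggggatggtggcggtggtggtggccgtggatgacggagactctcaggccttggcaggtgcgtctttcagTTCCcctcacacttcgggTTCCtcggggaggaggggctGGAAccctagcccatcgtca
PVRIG: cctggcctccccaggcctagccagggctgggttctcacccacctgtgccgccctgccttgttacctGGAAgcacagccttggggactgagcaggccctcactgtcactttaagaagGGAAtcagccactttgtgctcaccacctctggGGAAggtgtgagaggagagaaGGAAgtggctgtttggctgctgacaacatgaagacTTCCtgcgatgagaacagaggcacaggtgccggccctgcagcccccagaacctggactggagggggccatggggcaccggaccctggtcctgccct

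TGANTCA was found in 1 of these 4 windows, that of LAT, once, 78 bases before the start, and 7.71% of the 35116 promoters in the RefSeq table hold it. TGTGGT was found in that of CD28 once, and 13.1% of promoters hold it. GGAA was found 3 times for LAT, 7 times for LCP2, 4 times for CD28 and 5 times for PVRIG, and 95.5% of promoters hold it. A second annotated start of LAT, not printed, holds TGTGGT once and no TGANTCA. LCK, ZAP70 and PTPRC also have entries in the table, which makes 7 of the 9 genes with PTPRCAP and SLA named only. Of their windows, also not printed, 1 of ZAP70 holds TGANTCA, 36 bases after its start. ZAP70 was not called with PMA in either line. In LCK 1 window holds TGTGGT, 80 bases before its start. The part of these motifs in the changes of the 9 genes was not tested.

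Wells were used if they reached 10% of their plate's median total and 500 detected genes, which held for 410 of them. Of the other 70 wells, 66 were J-Lat A2 wells with SAHA, so that 55.8% of the wells of this group were used in the first batch (67 wells) and 83.95% in the second (68 wells). Counts were added up per group and batch into 9 sums with 4682181 to 36603816 counts. Levels are CPM, counts scaled to a normalised total of 1000000, given per batch sum (first batch, then second) or per plate sum. HIVmini, taken as the feature of the construct, had a read in 72.6% of J-Lat A2 wells with SAHA, 69.6% with PMA and 5.32% with DMSO, against 3.92% of Jurkat wells, where no well had more than 1 count. CD69, an early activation antigen, had 1017 CPM in J-Lat A2 cells with PMA, against 5.74 and 0.103 CPM with DMSO. It was also higher with SAHA than with DMSO in J-Lat A2 cells, with a log2 fold change of 2.99 ± 0.64 (edgeR's quasi-likelihood test, adjusted p = 0.0192). Of 11 T cell markers 9 to 11 had a count in each sum, and their summed level was 656 to 962 CPM with SAHA, 11982 to 13294 CPM with PMA and 3772 to 4435 CPM with DMSO. CD4 was at 0 in every sum but that of Jurkat with SAHA (0.535 CPM). Of the B cell markers, MS4A1, CD79B, PAX5 and CD22 were at 0 throughout, while CD79A was counted and was lower with SAHA, with a log2 fold change of -3.46 ± 0.57 in J-Lat A2 cells (adjusted p = 0.00576) and -4.60 ± 0.95 in Jurkat cells (adjusted p = 0.0263) in edgeR's quasi-likelihood test. The summed level over the 9 sums was at most 2.86 CPM for 8 myeloid markers (4 at 0 throughout, CSF1R, FCGR1A, MPO and SPI1), 13.6 CPM for 7 NK cell markers (3 at 0, GNLY, NCR1 and FCGR3A) and 2.99 CPM for 6 epithelial markers (2 at 0, EPCAM and CDH1). The part of the shift in T cell markers in the changes of the 9 genes was not tested.

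**Figure D1:**
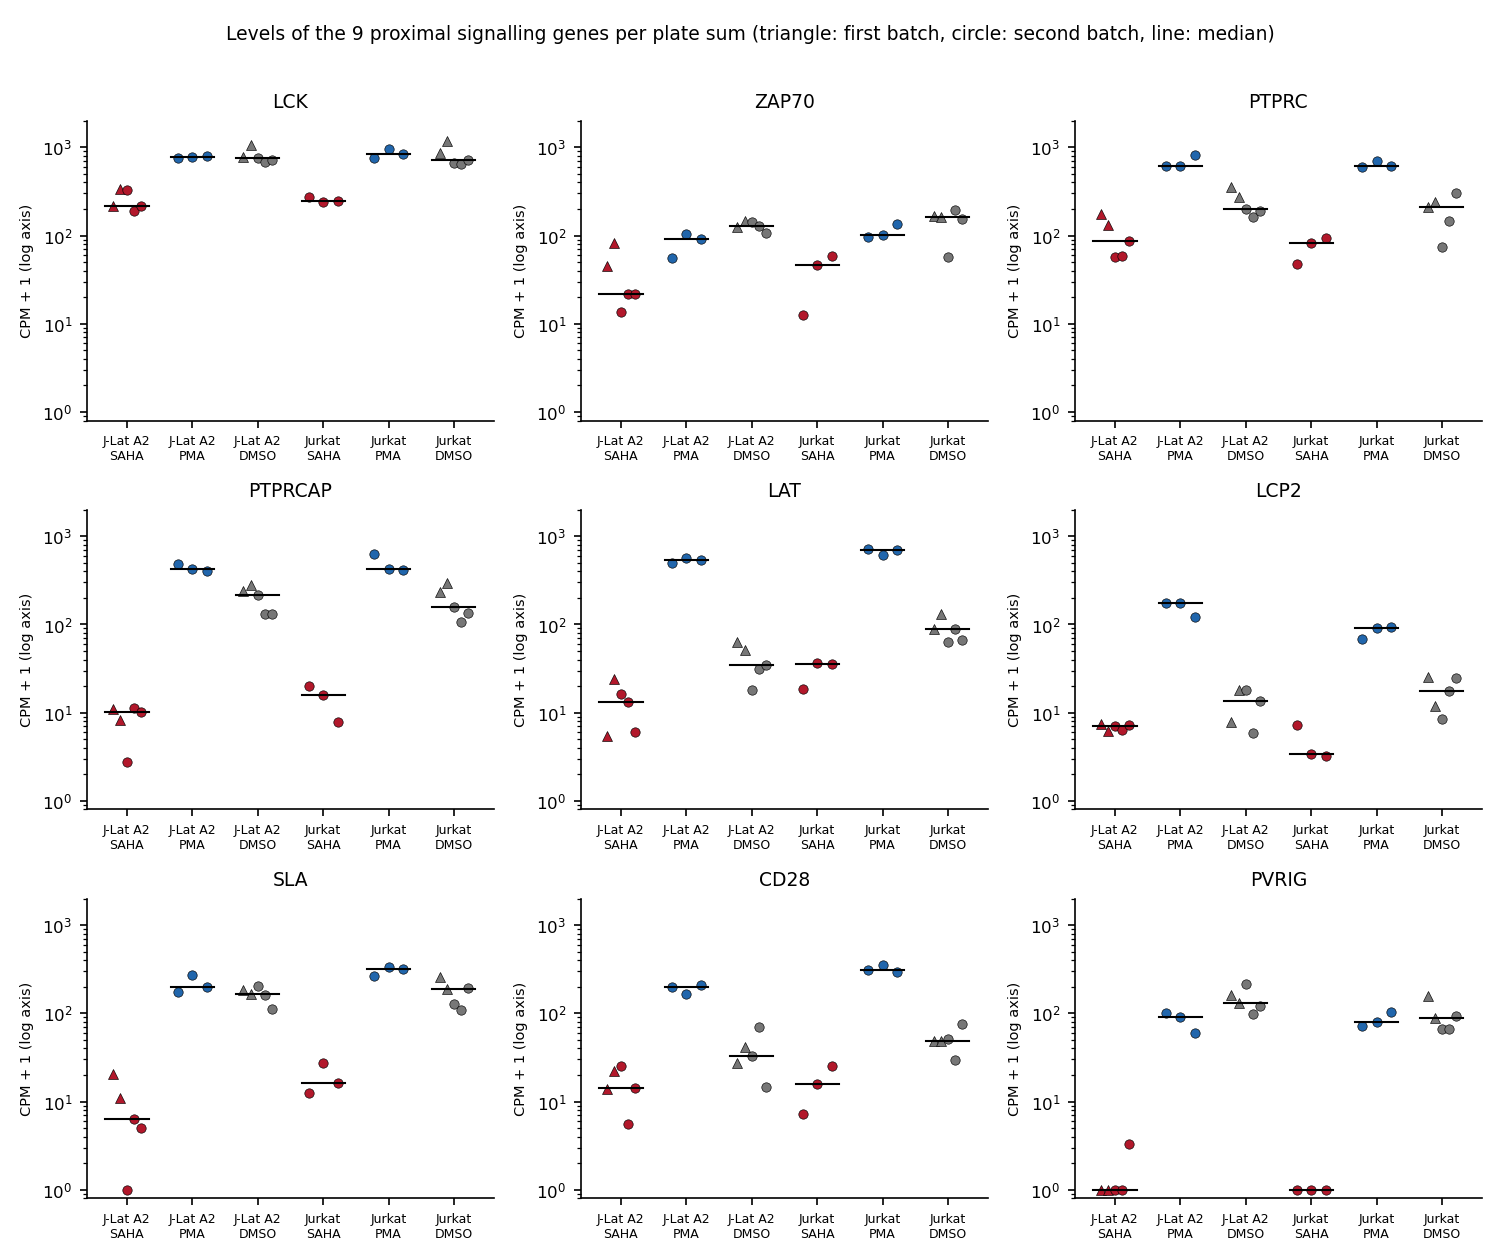
Level of each of the 9 genes (CPM + 1, log axis) in every sum of 1 group on 1 plate, with triangles for the first batch, circles for the second and a line at the median. All 5 J-Lat A2 plates with SAHA lie below all 5 with DMSO for LCK, ZAP70, PTPRCAP, SLA and PVRIG, and in both lines all 3 plates with PMA lie above those with DMSO for PTPRC, PTPRCAP, LAT, LCP2 and CD28.

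Per kilobase of the longest coding transcript, LCK had the highest level of the 9 genes in all 6 groups. With SAHA it had 114.7 CPM per kilobase in J-Lat A2 cells and 117.05 in Jurkat cells, with PMA 353 and 393, and with DMSO 363 and 387. LCP2 was the lowest with PMA and with DMSO, and PVRIG the lowest with SAHA. LAT stood higher in this order with PMA: it had 309 CPM per kilobase in J-Lat A2 cells with PMA, rank 3 of the 9, against 24.9 with DMSO, rank 7 of the 9. In Jurkat cells LAT had 388 CPM per kilobase with PMA, against 52.1 with DMSO.

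SAHA lowered most of the set. In J-Lat A2 cells 8 of the 9 genes fell in edgeR's quasi-likelihood test and LCP2 was not called, beside 8.43% of all tested genes called in either direction. The median log2 fold change was -1.89 over the 9 genes and 0.12 over all tested genes. In Jurkat cells 6 of the 9 fell (LCK, PTPRCAP, LCP2, SLA, CD28 and PVRIG), beside 4.22% of all tested genes, with a median of -1.81 over the 9 genes and 0.11 over all. None rose in either line. With plate sums and plates as blocks, and in DESeq2, ZAP70, PTPRC and LAT were called in Jurkat cells as well, which makes 9 of the 9. Their adjusted p on plate sums was 0.0106 for ZAP70, 0.0145 for PTPRC and 0.0401 for LAT, although nothing in the labels says that plates of a batch were separate cultures. Plate ranges with SAHA and with DMSO did not overlap for 5 of the 9 in J-Lat A2 cells and 7 in Jurkat cells, as held for 10.2% and 14.7% of all tested genes. With equal weight for every well (limma) none of the tested genes passed in any comparison, and the called genes among the 9 kept their direction. The unadjusted p in limma was under 0.05 for 7 of the 9 in each line, and the share of all tested genes under it was not counted.

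The wells with SAHA differed in other ways too. The median mitochondrial share of a well's counts was 4.91% and 4.94% in J-Lat A2 cells with SAHA, against 3.59% and 3.66% with DMSO, and 4.51% in Jurkat cells with SAHA, against 3.61% and 3.20% with DMSO. In the first batch the median total of J-Lat A2 wells was 284001 counts with SAHA, against 472011 with DMSO, over plates of unlike depth. On plate P2449 it was 581713 with SAHA, against 655252 with DMSO, and on plate P2458 it was 249914, against 211622. Of the SAHA wells used, 29 were on P2449 and 38 on P2458, and of the DMSO wells 30 and 29. In the second batch the median total was 555658 with SAHA, against 550336 with DMSO. The part of the mitochondrial share, of the well totals and of the wells left out in these results was not tested.

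LCK (ENSG00000182866, chr1:32251239-32286165, plus strand, GENCODE 29 on GRCh38), the Src family kinase that starts the cascade, had 257 and 239 CPM in J-Lat A2 cells with SAHA, against 833 and 738 CPM with DMSO. In Jurkat cells it had 254 CPM with SAHA, against 983 and 692 CPM with DMSO. The plates with SAHA lay below those with DMSO in both lines without overlap. LCK fell with a log2 fold change of -1.66 ± 0.16 in J-Lat A2 cells (SE, adjusted p = 0.000331) and -1.58 ± 0.21 in Jurkat cells (adjusted p = 0.00410). ZAP70 (ENSG00000115085, chr2:97713560-97739862, plus strand), the kinase that LCK activates, had 56.3 and 17.95 CPM in J-Lat A2 cells with SAHA, against 125.8 and 127.6 CPM with DMSO, and 37.8 CPM in Jurkat cells with SAHA, against 167.4 and 148.1 CPM with DMSO. Its 2 SAHA batches lay far apart, the first being the higher. The log2 fold change of -1.93 ± 0.38 was called in J-Lat A2 cells (adjusted p = 0.0137), and that of -1.78 ± 0.50 in Jurkat cells was not (adjusted p = 0.0865). Without the J-Lat A2 DMSO sum of the second batch the call of ZAP70 was lost.

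In J-Lat A2 cells both the phosphatase and its partner fell. PTPRC (ENSG00000081237, chr1:198638457-198757476, plus strand) had 156.1 and 65.8 CPM in J-Lat A2 cells with SAHA, against 325 and 187.1 CPM with DMSO, and 73.8 CPM in Jurkat cells with SAHA, against 225 and 185.3 CPM with DMSO. Its plate ranges overlapped, although SAHA was lower on every plate that held both groups. The log2 fold change was -1.26 ± 0.22 in J-Lat A2 cells (adjusted p = 0.00811) and -1.10 ± 0.29 in Jurkat cells, where it was not called (adjusted p = 0.0729). PTPRCAP (ENSG00000213402, chr11:67435510-67438067, minus strand), a small transmembrane protein, had 8.87 and 7.16 CPM in J-Lat A2 cells with SAHA, against 243 and 164.03 CPM with DMSO, and 13.8 CPM in Jurkat cells with SAHA, against 255 and 133.1 CPM with DMSO. On single plates of J-Lat A2 cells PTPRCAP had 9.95, 7.26, 1.75, 10.3 and 9.23 CPM with SAHA, against 236, 282, 213, 129.1 and 131.8 CPM with DMSO. No plate with SAHA came near the lowest plate with DMSO, and PTPRCAP fell with a log2 fold change of -4.64 ± 0.23 in J-Lat A2 cells (adjusted p = 1.14e-05) and -3.44 ± 0.31 in Jurkat cells (adjusted p = 0.000770). PTPRCAP lies wholly inside the span of CORO1B, an actin regulator on the same strand, which had 5.71 to 28.2 CPM over the 9 sums and was called in no comparison. On the opposite strand SLA lies within TG, the thyroglobulin gene, which had at most 0.343 CPM in any sum, and LCP2 overlaps C5orf58, which had at most 2.28 CPM. LAT overlaps AC109460.3, a transcript on the same strand that was not analysed here. How reads of overlapping genes were shared out, and whether strand was used, the sources used here do not state.

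Of the adaptors, LAT (ENSG00000213658, chr16:28984826-28990783, plus strand), a membrane scaffold, had 10.95 and 10.6 CPM in J-Lat A2 cells with SAHA, against 58.02 and 27.2 CPM with DMSO, and 29.4 CPM in Jurkat cells with SAHA, against 102.7 and 75.8 CPM with DMSO. It fell with a log2 fold change of -1.89 ± 0.26 in J-Lat A2 cells (adjusted p = 0.00245), and in Jurkat cells the value of -1.32 ± 0.34 was not called (adjusted p = 0.0633), although the plates did not overlap there. LCP2 (ENSG00000043462, chr5:170246237-170298227, minus strand), which LAT recruits through the adaptor GRAP2, was low already with DMSO. It had 5.92 and 5.85 CPM in J-Lat A2 cells with SAHA, against 9.19 and 11.9 CPM with DMSO, and the log2 fold change of -0.84 ± 0.38 had a 95% interval of -1.70 to 0.02 (adjusted p = 0.249). In Jurkat cells LCP2 had 3.69 CPM with SAHA, against 20.5 and 17.1 CPM with DMSO, and fell with a log2 fold change of -2.37 ± 0.55 (adjusted p = 0.0441), a call lost without either DMSO sum of the second batch. SLA (ENSG00000155926, chromosome 8), which resembles Src kinases but lacks a kinase domain, had 15.9 and 3.17 CPM in J-Lat A2 cells with SAHA, against 173.4 and 163.6 CPM with DMSO, and 17.9 CPM in Jurkat cells with SAHA, against 241 and 145.7 CPM with DMSO. Its plates did not overlap in either line, and it fell with a log2 fold change of -4.47 ± 0.48 in J-Lat A2 cells (adjusted p = 0.000598) and -2.90 ± 0.59 in Jurkat cells (adjusted p = 0.0252), the second call being lost without the Jurkat DMSO sum of the second batch. A read of SLA was present in 6.67% of J-Lat A2 wells with SAHA, which is 9 wells, against 68.1% with DMSO. The median of the wells with a read was 130.8 CPM with SAHA, against 159.5 CPM with DMSO, but the batches differed. With SAHA it was 155.7 CPM in 5 wells of the first batch and 46.4 CPM in 4 wells of the second. With DMSO it was 155.3 and 169.1 CPM.

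Of the receptors, CD28 (ENSG00000178562, chr2:203706475-203738912, plus strand) had 15.4 and 13.6 CPM in J-Lat A2 cells with SAHA, against 29.3 and 39.5 CPM with DMSO, and 14.9 CPM in Jurkat cells with SAHA, against 48.8 and 52.03 CPM with DMSO. The log2 fold change was -1.23 ± 0.26 in J-Lat A2 cells (adjusted p = 0.0190) and -1.81 ± 0.36 in Jurkat cells (adjusted p = 0.0231). The CD28 calls depended on the setting: in J-Lat A2 cells the call was lost on plate sums, in the second batch alone and without the second-batch sum of SAHA or of DMSO, and in Jurkat cells in the second batch alone and without the Jurkat DMSO sum of that batch.

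PVRIG (ENSG00000213413, chr7:100218241-100221490, plus strand), a receptor for a nectin on other cells, had the lowest levels of all with SAHA. It had 0 and 0.771 CPM in J-Lat A2 cells with SAHA, against 148.8 and 149.7 CPM with DMSO. Jurkat cells with SAHA had 0 counts, against 137.5 and 77.004 CPM with DMSO. PVRIG fell with a log2 fold change of -8.43 ± 0.83 in J-Lat A2 cells (edgeR, adjusted p = 0.000390). It also fell in Jurkat cells (edgeR, adjusted p = 0.00410). Counting the 0 as 3 counts over the group gives 0.160 CPM, 614-fold below the 98.5 CPM of both Jurkat DMSO sums pooled. Jurkat with SAHA was in the second batch alone, where DMSO had 77.004 CPM, so the bound within that batch is smaller. This bound treats counts as independent molecules, although no molecular identifiers were used. By well, 0.741% of J-Lat A2 wells with SAHA had a PVRIG read, against 96.8% with DMSO, and 0 of 36 Jurkat wells with SAHA, which allows a share of up to 8.33% counted as 3 wells (exact upper limit 9.74%), against 30 of 30 with DMSO. The J-Lat A2 share with SAHA is 1 well, with 27 counts, and is below the 3.92% of Jurkat wells with a HIVmini read, a feature Jurkat cells lack. Those Jurkat wells had at most 1 HIVmini count each, so the shares compare unlike counts. Whether the PVRIG reads of that 1 well came from its own cell was not tested. PVRIG overlaps STAG3, a meiotic cohesin gene on the same strand, over nearly its whole span. STAG3 had 11.4 and 13.6 CPM in J-Lat A2 cells with SAHA, against 21.6 and 31.96 CPM with DMSO, and was called in no comparison.

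**Figure D2:**
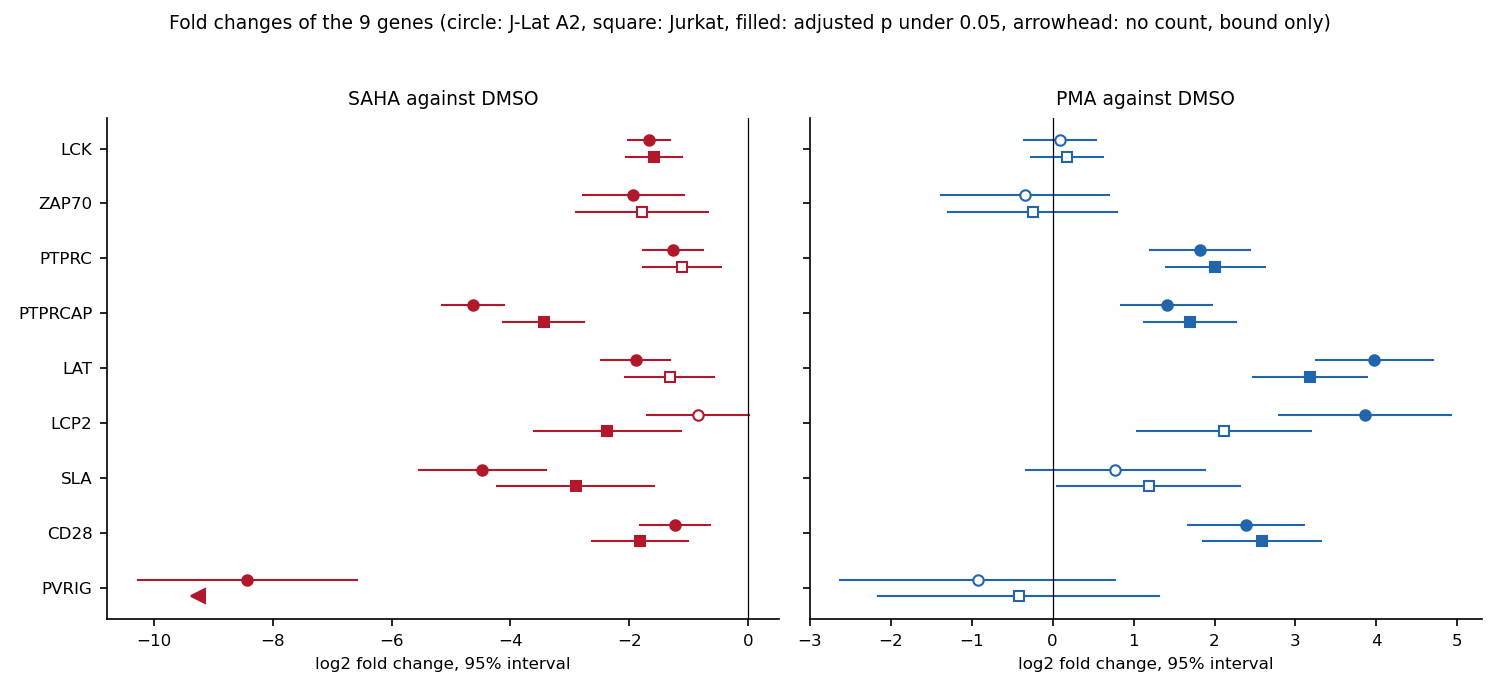
Log2 fold change of each gene with its 95% interval, SAHA against DMSO in the left panel and PMA against DMSO in the right, circles for J-Lat A2 and squares for Jurkat, filled where the adjusted p was under 0.05. PVRIG in Jurkat cells with SAHA is drawn at its bound of -9.26 against the DMSO sums of both batches pooled. All SAHA values lie left of 0, and with PMA the intervals of LCK, ZAP70 and PVRIG include 0 in both lines.

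PMA raised some of the same genes. In J-Lat A2 cells 5 of the 9 rose (PTPRC, PTPRCAP, LAT, LCP2 and CD28), beside 1.98% of all tested genes called in either direction. In Jurkat cells 4 of the 9 rose (PTPRC, PTPRCAP, LAT and CD28), beside 2.27% of all tested genes. None of the 9 fell in either line. The median log2 fold change was 1.41 over the 9 genes and 0.04 over all tested genes in J-Lat A2 cells, and 1.70 and 0.07 in Jurkat cells. Plate ranges with PMA and with DMSO did not overlap for 6 of the 9 in each line, as held for 12.3% of all tested genes in J-Lat A2 cells and 10.7% in Jurkat cells. These included ZAP70 in J-Lat A2 cells, whose plates with PMA lay below those with DMSO. In Jurkat cells they included SLA, whose plates with PMA lay above. With equal weight for every well none of these calls passed, and the unadjusted p in limma was under 0.05 for 5 of the 9 in each line. The share of all tested genes under that unadjusted p was not counted for this run. The PMA and SAHA comparisons share their DMSO sums.

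LAT had the largest log2 fold change of the 9 genes with PMA, with LCP2 close to it in J-Lat A2 cells. LAT had 530.03 CPM in J-Lat A2 cells with PMA, against 58.02 and 27.2 CPM with DMSO, and 665 CPM in Jurkat cells with PMA, against 102.7 and 75.8 CPM with DMSO. On single plates of J-Lat A2 cells LAT had 498, 567 and 544 CPM with PMA, against 61.9, 50.7, 16.95, 30.1 and 33.9 CPM with DMSO, and the groups were far apart. The log2 fold change was 3.98 ± 0.33 in J-Lat A2 cells (adjusted p = 0.000349) and 3.18 ± 0.31 in Jurkat cells (adjusted p = 0.00127). All 79 J-Lat A2 wells and all 36 Jurkat wells with PMA had a LAT read, against 52 of 94 J-Lat A2 wells and 28 of 30 Jurkat wells with DMSO. In the wells with a read the median was 485 CPM in J-Lat A2 cells with PMA, against 70.9 CPM with DMSO.

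LCP2 rose beside LAT in J-Lat A2 cells. It had 154.97 CPM with PMA, against 9.19 and 11.9 CPM with DMSO, on plates that did not overlap, and a log2 fold change of 3.86 ± 0.48 (adjusted p = 0.00373). In Jurkat cells LCP2 had 82.6 CPM with PMA, against 20.5 and 17.1 CPM with DMSO, and a log2 fold change of 2.12 ± 0.48 that was not called (adjusted p = 0.0562), although the plates did not overlap there either and LCP2 was called on plate sums (adjusted p = 0.00419) and in DESeq2. Reads of both adaptors were found in 5 J-Lat A2 wells with SAHA, 77 of 79 with PMA and 29 of 94 with DMSO. In Jurkat cells both were found in 13 of 36 wells with SAHA, 36 of 36 with PMA and 21 of 30 with DMSO. Across the 79 J-Lat A2 wells with PMA, which share plates and a batch, the levels of LAT and LCP2 had a rank correlation of 0.44. This was the highest among pairs of the 9 genes in that group. For the same pair it was 0.05 with DMSO and -0.003 with SAHA in J-Lat A2 wells. In Jurkat wells it was 0.42 with PMA, 0.36 with SAHA and 0.23 with DMSO.

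CD28 had 186.6 CPM in J-Lat A2 cells with PMA, against 29.3 and 39.5 CPM with DMSO, and 316 CPM in Jurkat cells with PMA, against 48.8 and 52.03 CPM with DMSO. It rose with a log2 fold change of 2.39 ± 0.32 in J-Lat A2 cells (adjusted p = 0.00522) and 2.59 ± 0.33 in Jurkat cells (adjusted p = 0.00374). In J-Lat A2 cells the share of wells with a CD28 read was 84.8% with PMA (95% exact interval 74.97 to 91.9), against 41.5% with DMSO (31.4 to 52.1), and these intervals cover counting error only. PTPRC had 665 CPM in J-Lat A2 cells with PMA, against 325 and 187.1 CPM with DMSO, and 637 CPM in Jurkat cells with PMA, against 225 and 185.3 CPM with DMSO. Its log2 fold change was 1.82 ± 0.28 in J-Lat A2 cells (adjusted p = 0.0104) and 2.01 ± 0.27 in Jurkat cells (adjusted p = 0.00540). PTPRCAP had 429 CPM in J-Lat A2 cells with PMA, against 243 and 164.03 CPM with DMSO, and 487 CPM in Jurkat cells with PMA, against 255 and 133.1 CPM with DMSO. Its log2 fold change was 1.41 ± 0.25 in J-Lat A2 cells (adjusted p = 0.0205) and 1.70 ± 0.25 in Jurkat cells (adjusted p = 0.00862). For CD28, PTPRC and PTPRCAP every plate with PMA lay above every plate with DMSO in both lines. In J-Lat A2 cells the second batch alone gave no call for PTPRCAP and CD28, and without the J-Lat A2 DMSO sum of that batch PTPRC and PTPRCAP were not called. In Jurkat cells the call of PTPRCAP was lost without the Jurkat DMSO sum of that batch.

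The 2 kinases, SLA and PVRIG were not called with PMA. LCK had 764 CPM in J-Lat A2 cells with PMA, against 833 and 738 CPM with DMSO, and its log2 fold change of 0.09 ± 0.20 had a 95% interval of -0.35 to 0.53. In Jurkat cells LCK had 852 CPM with PMA, against 983 and 692 CPM with DMSO, with an interval of -0.27 to 0.62. These are the narrowest intervals of the 9 genes with PMA. ZAP70 had 83.1 CPM in J-Lat A2 cells with PMA, against 125.8 and 127.6 CPM with DMSO, and 109.5 CPM in Jurkat cells with PMA, against 167.4 and 148.1 CPM with DMSO. The J-Lat A2 plates of ZAP70 with PMA lay just below those with DMSO, and the interval of the log2 fold change was -1.38 to 0.69 in J-Lat A2 cells and -1.29 to 0.80 in Jurkat cells. SLA had 215 CPM in J-Lat A2 cells with PMA, against 173.4 and 163.6 CPM with DMSO, and 305 CPM in Jurkat cells with PMA, against 241 and 145.7 CPM with DMSO. Its log2 fold change was 0.78 ± 0.49 in J-Lat A2 cells (adjusted p = 0.649) and 1.19 ± 0.50 in Jurkat cells (adjusted p = 0.334). PVRIG had 81.2 CPM in J-Lat A2 cells with PMA, against 148.8 and 149.7 CPM with DMSO, and 83.3 CPM in Jurkat cells with PMA, against 137.5 and 77.004 CPM with DMSO. The log2 fold change of PVRIG was -0.93 ± 0.76 in J-Lat A2 cells and -0.42 ± 0.78 in Jurkat cells, and its plates with PMA overlapped those with DMSO in both lines. A PVRIG read was present in 63 of 79 J-Lat A2 wells with PMA, against 91 of 94 with DMSO, and in all Jurkat wells of both groups.

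**Figure D3:**
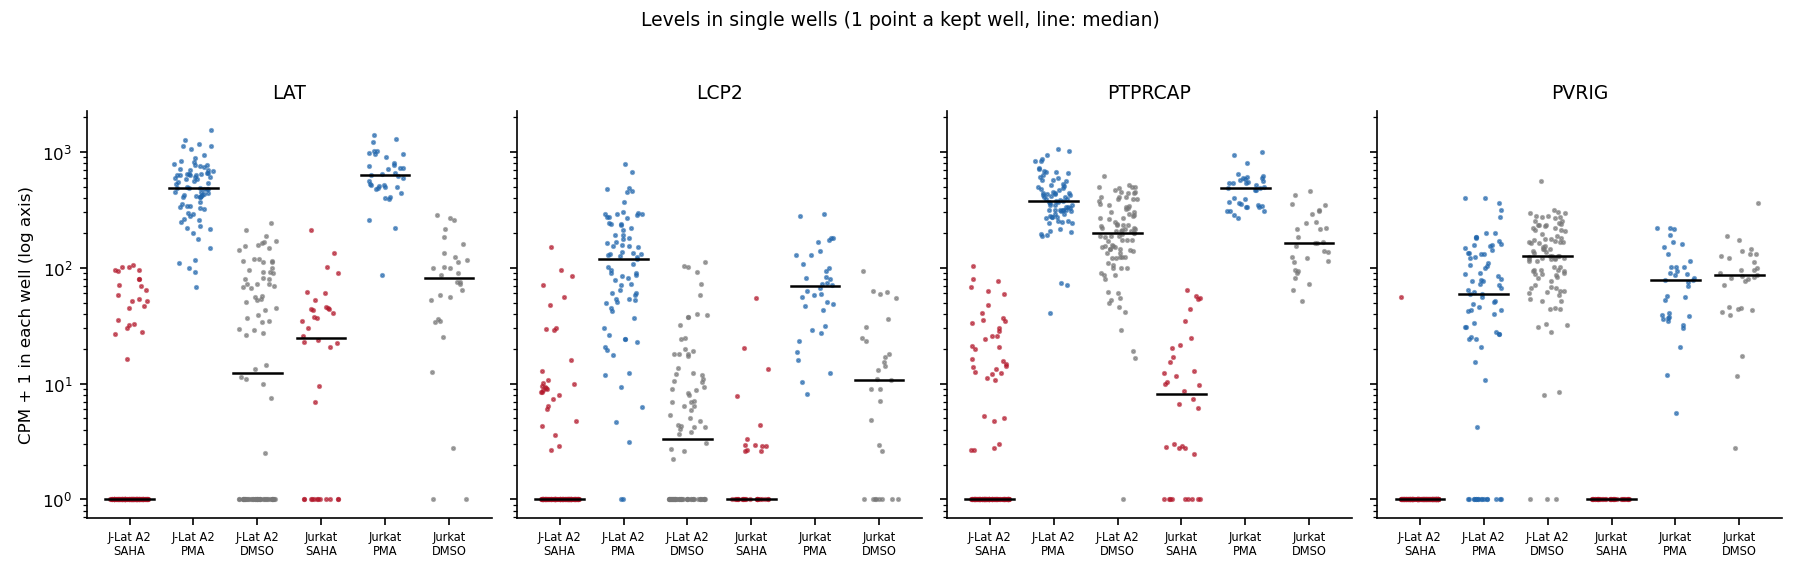
Level of LAT, LCP2, PTPRCAP and PVRIG in every used well (CPM + 1, log axis), 1 point a well and a line at the median of the group, with wells without a read at the bottom. All wells with PMA hold LAT and PTPRCAP reads, and of the wells with SAHA 1 holds a PVRIG read.

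Between the agents in J-Lat A2 cells, 8 of the 9 genes were higher with PMA than with SAHA, beside 3.62% of all tested genes called in either direction, and ZAP70 was not called (log2 fold change 1.58 ± 0.48, adjusted p = 0.126), except on plate sums (adjusted p = 0.0125), in the second batch alone and in DESeq2. PVRIG had the largest log2 fold change, 7.51 ± 0.85 (adjusted p = 0.000974), ahead of PTPRCAP with 6.05 ± 0.27 (adjusted p = 3.69e-06) and LAT with 5.87 ± 0.33 (adjusted p = 1.16e-05). That of LCK was the smallest called, 1.75 ± 0.19 (adjusted p = 0.000820). Over all 6 groups, ordered by the median of their plates, both SAHA groups were the lowest for every gene but LAT, where Jurkat with SAHA (median 34.3 CPM) and J-Lat A2 with DMSO (median 33.9 CPM) overlapped. For ZAP70, PTPRC, LCP2 and CD28 the higher SAHA group also overlapped the group next above it. Both PMA groups were the highest for every gene but ZAP70 and PVRIG, although for LCK and SLA they overlapped the DMSO groups next to them. J-Lat A2 with PMA (median 174.3 CPM) and Jurkat with PMA (median 90.7 CPM) did not overlap for LCP2, and for LAT and CD28 Jurkat with PMA was the higher of both without overlap.

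**Figure D4:**
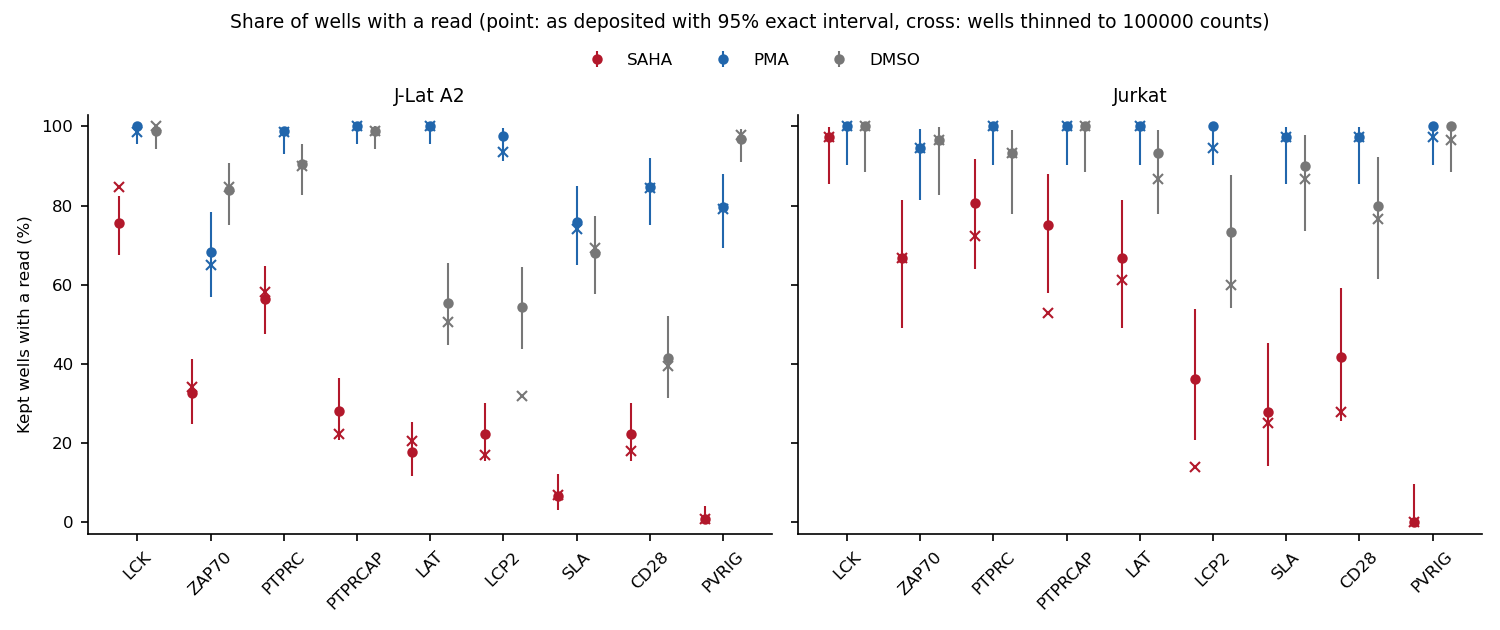
Share of used wells with a read of each gene in percent, as points with 95% exact intervals, and as crosses after thinning to 100000 counts a well, J-Lat A2 left and Jurkat right. SAHA gives the lowest share for every gene in both lines, in J-Lat A2 cells between 0.741% for PVRIG and 75.6% for LCK.

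Counted by well, the set was sparse with SAHA. The median number of the 9 genes with a read was 3 in J-Lat A2 wells with SAHA, 8 with PMA and 7 with DMSO, and in Jurkat wells 5 with SAHA, 9 with PMA and 8 with DMSO. Thinned to 100000 counts a well, the medians were 3, 8 and 7 in J-Lat A2 wells and 4, 9 and 8 in Jurkat wells, after leaving out the shallower wells, which were 18 J-Lat A2 wells with SAHA, 2 with PMA, 3 with DMSO and 0 Jurkat wells. Single shares moved more where a gene had few counts a well. LCP2 was read in 54.3% of J-Lat A2 wells with DMSO, or 31.9% after thinning, and PTPRCAP in 75% of Jurkat wells with SAHA, or 52.8% after thinning.

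Between the lines with DMSO none of the 9 genes was called by edgeR's quasi-likelihood test, beside 0.398% of all tested genes. LAT was the 1 gene with an unadjusted p under 0.05 in edgeR, as held for 9.29% of all tested genes, and the 1 gene that DESeq2 called. LAT had 58.02 and 27.2 CPM in J-Lat A2 cells, against 102.7 and 75.8 CPM in Jurkat cells. The log2 fold change of LAT was -1.12 ± 0.25 (edgeR, adjusted p = 0.125). It was lower in J-Lat A2 cells on all 5 plates, while PVRIG was higher on all 5 with a log2 fold change of 0.47 ± 0.57. How many of all tested genes kept 1 direction on all 5 plates was not counted. The 95% interval of the difference was -0.42 to 0.27 for LCK and -0.34 to 0.55 for PTPRCAP, and wider for the others.

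Whether the lines responded differently was tested as an interaction. For SAHA none of the 9 genes was called by edgeR, beside 0.00738% of all tested genes, with 3 at an unadjusted p under 0.05, as held for 3.77% of all tested genes, and 0 called by DESeq2. These 3 were PTPRCAP and SLA, with log2 differences of -1.20 ± 0.33 and -1.57 ± 0.70 for J-Lat A2 relative to Jurkat, and LCP2, with 1.53 ± 0.65. For PMA none was called by edgeR, beside 0.0221% of all tested genes, with 1 at an unadjusted p under 0.05, as held for 3.39% of all tested genes, and 0 called by DESeq2. That 1 was LCP2, with 1.74 ± 0.66.

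Of all tested genes, edgeR called 8.43% in either direction with SAHA in J-Lat A2 cells and 4.22% in Jurkat cells. With PMA these shares were 1.98% and 2.27%. The genes around these 9 were taken from lists of the same pathway. The receptor chains went the same way: of 7 TCR and CD3 genes all 7 fell with SAHA in J-Lat A2 cells and 6 in Jurkat cells, and with PMA 4 rose in each line (TRAC, TRBC1, TRBC2 and CD3D), with median log2 fold changes of -2.57 and -2.11 for SAHA and 1.27 and 1.24 for PMA. CD3G, a signalling chain, had a log2 fold change of -2.83 ± 0.20 with SAHA in J-Lat A2 cells (adjusted p = 5.56e-05). TRAC, the constant part of the alpha chain, had one of 4.64 ± 0.22 with PMA in J-Lat A2 cells (adjusted p = 1.35e-05), and was also lower in J-Lat A2 than in Jurkat cells with DMSO, with a log2 fold change of -2.48 ± 0.18 (adjusted p = 0.000235).

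Of 23 tested kinases, phosphatases and negative regulators, 6 fell and 1 rose with SAHA in J-Lat A2 cells, and 5 fell in Jurkat cells. LIME1, an adaptor that binds LCK and CSK, had log2 fold changes of -4.12 ± 0.41 in J-Lat A2 cells (adjusted p = 0.000411) and -3.01 ± 0.54 in Jurkat cells (adjusted p = 0.0142). TRAT1, an adaptor of the receptor complex, had -2.76 ± 0.44 in J-Lat A2 cells and -2.86 ± 0.60 in Jurkat cells. PTPN7, a phosphatase of MAP kinases in blood cells, fell with SAHA, with log2 fold changes of -2.83 ± 0.19 in J-Lat A2 cells and -3.03 ± 0.27 in Jurkat cells, and rose with PMA, with log2 fold changes of 1.74 ± 0.23 and 1.56 ± 0.23. PTPN2, a phosphatase of LCK and JAK kinases, was the 1 gene of this list that fell with PMA in edgeR, with log2 fold changes of -1.23 ± 0.24 in J-Lat A2 cells and -1.51 ± 0.24 in Jurkat cells, and PTPN7 the 1 that rose. DESeq2 called 3 of the list up and 1 down in J-Lat A2 cells, and 2 up and 1 down in Jurkat cells.

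Of 22 tested partners of LAT and LCP2, 4 fell with SAHA in J-Lat A2 cells (SH2D1A, FYB1, GRAP2 and THEMIS) and 2 in Jurkat cells (GRAP2 and SH2D1A), and none rose. GRAP2, which links LAT to LCP2, had log2 fold changes of -2.13 ± 0.39 in J-Lat A2 cells (adjusted p = 0.00898) and -2.24 ± 0.53 in Jurkat cells (adjusted p = 0.0458). With PMA 2 of the 22 rose in J-Lat A2 cells, EVL with a log2 fold change of 3.62 ± 0.57 and SKAP1 with 2.70 ± 0.39, which belong to the complex that ties the receptor to actin and integrins. In Jurkat cells 5 rose with PMA (GRAP2, GRB2, SH2D1A, SKAP1 and THEMIS), among them GRAP2 with a log2 fold change of 2.19 ± 0.47 (adjusted p = 0.0437).

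Of 20 tested genes of the diacylglycerol and calcium arms, which lie below LAT, edgeR called none with SAHA in either line. In each line 4 of the 20 (20%) had an unadjusted p under 0.05. The share over all tested genes was 21.1% in J-Lat A2 cells and 17.2% in Jurkat cells. DESeq2 called 1 of the list up and 1 down in J-Lat A2 cells and 1 down in Jurkat cells. With PMA DGKA, a kinase that removes diacylglycerol, rose with log2 fold changes of 2.35 ± 0.27 in J-Lat A2 cells (adjusted p = 0.00237) and 2.66 ± 0.26 in Jurkat cells (adjusted p = 0.00132), and NFATC3, a calcium-controlled transcription factor, rose with 1.92 ± 0.33 in J-Lat A2 cells. Of 18 tested co-receptors, costimulatory and inhibitory receptors, SLAMF6 rose with PMA in J-Lat A2 cells with a log2 fold change of 3.13 ± 0.61, and CD84 and CD96 in Jurkat cells with log2 fold changes of 3.73 ± 0.72 and 2.53 ± 0.47. With SAHA 1 was called in J-Lat A2 cells, the inhibitory receptor BTLA, which had 1.45 and 1.51 CPM, against 0 in both DMSO sums. In Jurkat cells edgeR called none of the 18 with SAHA, and DESeq2 called 1 up and 1 down. The unadjusted p in edgeR was under 0.05 for 5 of the 18, beside 17.2% of all tested genes. Of the 5 tested ligands of CD28 and PVRIG edgeR called none in the 4 comparisons with DMSO, and none had an unadjusted p under 0.05. DESeq2 gave an adjusted p for 2 of them and called neither.

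**Figure D5:**
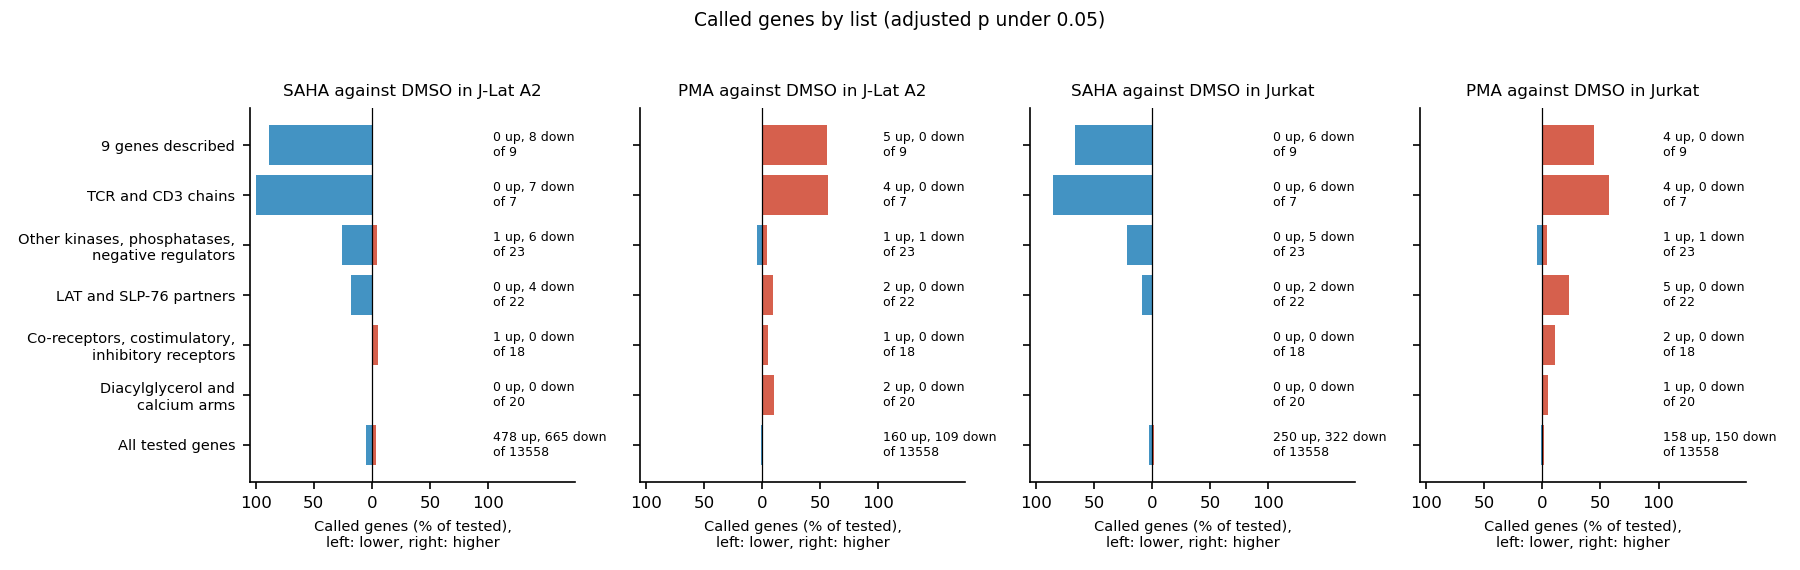
Share of the tested genes of each list called in each comparison with DMSO (adjusted p under 0.05), lower to the left and higher to the right, with counts beside the bars. The 9 genes and the receptor chains have the longest bars, and none of the diacylglycerol and calcium arms is called with SAHA.

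The genes that varied most like each of the 9 were read from the 18 plate sums of the second batch, centred within plates, over 5915 genes. These sums share plates and treatments, and r describes likeness only. PTPRCAP and SLA were each other's nearest gene (r = 0.97), the 1 such pair in the set. LCK was nearest to PSMB10 and CD3E (both 0.97), ZAP70 to UQCRFS1 (0.93), and PTPRC to MACROH2A1 and CORO1A (both 0.96). LAT was nearest to FXYD2 (0.99), LCP2 to CLIC1 (0.96), CD28 to ARHGAP15 (0.95), and PVRIG to ITPA (0.96). Within the set the lowest r was that of ZAP70 and LCP2 (0.50).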

How the data were processed

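Single sorted cells were sequenced from full-length cDNA without molecular identifiers. The deposited values are expected counts of each gene in each well, estimated by the authors, and the submitters' processing notes name Salmon 1.5.1, alevin and GRCh38.p13. The sources used here do not state the annotation, read filters or duplicate handling. Plates P2449 and P2458 were taken as the first batch and P2769, P2770 and P2771 as the second, from the design's plate numbers and the runs of plate names. Plates share index pairs, so wells were told apart by plate.

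Sums per group and batch were rounded. The batch is the replicate: 3 groups have n = 2 and 3 have n = 1, and a lone sum is assumed to vary like the others. The labels do not say that batches were separate cultures, so the spread may be technical. The 9 sums were fitted with edgeR 4.0.16 in R 4.3.3 (TMM, filterByExpr, group and batch terms, 2 residual and 7.75 prior degrees of freedom). The 8 contrasts were tested by its quasi-likelihood test, with Benjamini-Hochberg adjustment over 13558 genes and calls at 0.05. The script was tested on data simulated without a batch effect and with less spread than these, for SAHA against DMSO in J-Lat A2 only. That run does not show how reliable the calls are here. Fold changes include the batch term, so they can differ from ratios of the levels. Alternatives were DESeq2 1.42.0, limma 3.58.1 with equal weight per well, another size factor, no filter, all wells, plate sums and the second batch alone. In further runs each sum of the 3 groups with n = 2 was left out in turn. The lone sums of the groups with n = 1 were never left out. The 9 genes and the lists were chosen with earlier results of these data known. Of each list up to 3 called genes of at least 20 CPM with the largest change are named. Other called list genes were named after their values were seen. Intervals of shares are Clopper-Pearson (scipy 1.17.1).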

Additional observations from a re-analysis of the deposited data

Results flagged for a closer look

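In 2 groups 1 plate lay far from the other 4. LCK in J-Lat A2 cells with DMSO had 1058 CPM on plate P2458, and the next plate had 781 CPM. PVRIG in J-Lat A2 cells with SAHA had 2.29 CPM on plate P2771 and 0 on the others, from 1 well. With 27 groups of 5 plates examined, chance marks about 1 in 20 groups.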

How the results depend on the processing

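None of the 9 genes, where called, changed direction under any alternative run. Another size factor, no filter and all wells gave the same number of calls among the 9 genes as reported. Equal weight per well gave 0 calls in each comparison of agents, and the lowest adjusted p of the 9 genes was 0.0842. The second batch alone gave 3 calls for PMA in J-Lat A2, and DESeq2 gave 1 between the lines (LAT). Calls were also gained: DESeq2, plate sums and the second batch alone each added ZAP70, PTPRC and LAT for SAHA in Jurkat, LCP2 for PMA in Jurkat and ZAP70 for PMA against SAHA. Plate sums lost CD28 for SAHA in J-Lat A2. The second batch alone lost CD28 for SAHA in both lines, and PTPRCAP and CD28 for PMA in J-Lat A2. Leaving out 1 sum at a time gave 6 to 8 calls for SAHA in J-Lat A2, 3 to 5 for PMA in J-Lat A2, 3 to 9 for SAHA in Jurkat, 3 to 5 for PMA in Jurkat, 8 to 9 for PMA against SAHA, 0 to 1 between the lines (LAT), 0 to 1 for the difference in SAHA response (SLA, without the first J-Lat A2 SAHA sum) and 0 for that in PMA response. The cause of these changes was not tested. The lone sums of J-Lat A2 with PMA, Jurkat with SAHA and Jurkat with PMA were not among those left out. Over all genes DESeq2 called 2022 for SAHA and 747 for PMA in J-Lat A2, 1313 and 878 in Jurkat, 1081 for PMA against SAHA, 444 between the lines and 38 and 36 for the differences in response, against 1143, 269, 572, 308, 491, 54, 1 and 3 in edgeR. Plate sums called 1681, 692, 1343, 830, 1084, over 100, 7 and 3, and the second batch alone 984, 501, 960, 632, 800, 94, 7 and 0.

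Signs turned for uncalled values, given here as log2 fold changes. With equal weight ZAP70 had 0.0887 for PMA in Jurkat, and the difference in SAHA response was 0.0096 for PTPRC and -0.074 for PVRIG. On plate sums SLA had 0.0221 between the lines. In the second batch alone PVRIG had 0.19 for PMA in Jurkat, LCK 0.0978, ZAP70 0.0801 and SLA 0.19 between the lines, and LAT 0.0156 in the difference of SAHA responses. Leaving out 1 sum gave, with PMA in J-Lat A2, -0.62 to 0.32 for ZAP70. It gave, with PMA in Jurkat, -0.0671 to 0.31 for LCK, -0.49 to 0.19 for ZAP70, -1.45 to 0.12 for PVRIG. It gave, between the lines, -0.26 to 0.0996 for LCK, -0.83 to 0.11 for ZAP70, -0.11 to 0.65 for PTPRC, -0.13 to 0.35 for PTPRCAP, -0.90 to 0.50 for SLA, -0.20 to 1.37 for PVRIG. It gave, for the difference in SAHA response, -0.25 to 0.16 for LCK, -0.79 to 0.81 for ZAP70, -0.69 to 0.27 for PTPRC, -0.95 to 6.73 for PVRIG. It gave, for the difference in PMA response, -0.26 to 0.0988 for LCK, -0.51 to 0.43 for ZAP70, -0.58 to 0.17 for PTPRC, -1.01 to 0.40 for SLA, -0.44 to 0.0479 for CD28, -1.41 to 0.16 for PVRIG. Depth limits PVRIG with SAHA, whose J-Lat A2 reads are 27 counts from 1 well. No paired analysis was possible by replicate number because these numbers follow accession order and pair no samples. Groups share plates, and plates were the block in the plate sums.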
